A study of Mus musculus with 8 samples.

Results

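Ion channel genes other than Ryr2, Cacna1c and Scn7a gave 224 of the 27391 circular RNAs (circRNAs) listed for the mouse heart, from 40 of 6492 host genes. A circRNA is a closed loop whose last exon has been joined, by back-splicing, to its own first exon. A read across that closing junction, a back-spliced read, counts the loop and not the linear messenger. The members were chosen by gene name alone, as potassium (Kcn), calcium (Cacn), sodium (Scn), pacemaker (Hcn), transient receptor potential (Trpc, Trpm, Trpv), chloride (Clcn), ryanodine receptor (Ryr) and inositol trisphosphate receptor (Itpr) genes. The 3 excluded hosts had 150 circles (Ryr2), 35 circles (Cacna1c) and 5 circles (Scn7a). No Hcn gene, inward rectifier (Kcnj) or auxiliary potassium channel subunit had a listed circle. Trpc4ap entered through its name, although its product is a protein bound to a TRP channel and not a channel.

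The hearts came from male wild-type (WT) mice, 4 after transverse aortic constriction (TAC) and 4 after a sham operation, with 1 library per mouse, collected 8 weeks after surgery. TAC narrows the aortic arch, so the left ventricle works against a raised pressure, and the comparison asks what differs under lasting pressure overload. Heart tissue was taken without separating its cell types, so fewer cells of a type and less RNA per cell cannot be told apart. Values are normalised back-spliced reads, the reads of a circle divided by a size factor of its library, and they are not scaled by length.

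Ion channels are membrane proteins whose opening lets ions cross a membrane down their gradient. In the cardiomyocyte, sodium channels start the action potential, calcium channels carry the current that triggers contraction, and potassium channels repolarise the cell. Ryanodine and inositol trisphosphate (IP3) receptors release calcium from internal stores, and TRP channels are cation channels gated by lipids, calcium, heat or stretch. Many channel genes, though not all, have many exons, which offer splice sites that a back-splice can use.

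The closing junctions of the circles that the values turn on are printed here because they are what each back-spliced read identifies. Each line gives the last 20 nt of the circle's last exon in lower case, followed by the first 20 nt of its first exon in capitals, 5′ to 3′ on the strand of the gene, from GENCODE M21 transcripts on mm10. The first group holds the most abundant member circle, which comes from Kcnt2, another circle that begins at the same exon, and a Kcnt2 circle that was read in TAC libraries only.
Kcnt2 exons 4 to 8 (chr1:140362949-140383095, plus strand, 363 nt): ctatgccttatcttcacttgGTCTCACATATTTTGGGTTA
Kcnt2 exons 4 to 13 (chr1:140362949-140450304, plus strand, 1019 nt): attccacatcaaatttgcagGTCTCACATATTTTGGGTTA
Kcnt2 exons 15 to 18 (chr1:140507700-140518971, plus strand, 700 nt): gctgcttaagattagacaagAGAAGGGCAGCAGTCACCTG
The next group holds Itpr2 circles from both length classes and the Ryr3 circle with the most reads.
Itpr2 exons 45 to 47 (chr6:146187440-146194620, minus strand, 427 nt): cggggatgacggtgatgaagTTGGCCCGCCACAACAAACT
Itpr2 exons 16 to 20 (chr6:146371253-146376182, minus strand, 854 nt): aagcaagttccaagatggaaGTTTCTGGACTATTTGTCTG
Itpr2 exons 48 to 54 (chr6:146144109-146180355, minus strand, 1088 nt): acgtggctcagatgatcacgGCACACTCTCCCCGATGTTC
Ryr3 exons 6 to 12 (chr2:112922425-112958250, minus strand, 835 nt): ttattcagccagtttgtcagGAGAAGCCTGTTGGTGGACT
The last group holds the leading circles of Kcnq1 and Trpc6 and 3 circles of Trpm7, of which those from exon 33 share their first exon.
Kcnq1 exons 12 to 15 (chr7:143358710-143363694, plus strand, 280 nt): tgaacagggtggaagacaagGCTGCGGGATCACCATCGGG
Trpc6 exons 4 to 9 (chr9:8634047-8658377, plus strand, 1122 nt): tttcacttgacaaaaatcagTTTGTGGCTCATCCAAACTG
Trpm7 exons 26 to 27 (chr2:126810163-126813408, minus strand, 781 nt): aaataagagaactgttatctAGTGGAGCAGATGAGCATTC
Trpm7 exons 33 to 35 (chr2:126797467-126799234, minus strand, 433 nt): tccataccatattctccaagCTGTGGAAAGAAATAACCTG
Trpm7 exons 33 to 36 (chr2:126797111-126799234, minus strand, 639 nt): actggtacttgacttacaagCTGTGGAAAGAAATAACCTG
The circles of Kcnt2 from exon 4 carry the same capitals, as do the pair from Trpm7 exon 33, so only the lower-case letters tell them apart. Every circle printed lies wholly in coding sequence.

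The 8 libraries differed widely in depth. TAC replicates 1 to 4 held 33132, 1119, 21074 and 36120 back-spliced reads, and sham replicates 1 to 4 held 40796, 3963, 17890 and 100142. TAC replicate 2 and sham replicate 2 thus lay under 5000 reads, and a count of 0 there allows up to 17.3 and 13.6 normalised reads, against 1.91 to 3.09 in the other TAC libraries and 0.584 to 2.48 in the other sham libraries. The TAC libraries together held 91445 reads and the sham libraries 162791, so a total of raw reads over a group is not a level. Ion channel circles had 256, 6, 145 and 284 reads in TAC libraries and 358, 37, 187 and 872 reads in sham libraries, 2145 in all (0.844% of 254236). Their share of a library ran from 0.536 to 0.786% in TAC and from 0.871 to 1.05% in sham, so that the groups did not overlap. Their 95% Wilson intervals did: those of TAC replicates 1, 2 and 4 reached 0.873, 1.165 and 0.883%, and those of sham replicates 1, 2 and 4 began at 0.792, 0.678 and 0.815%. Summed as normalised reads, ion channel circles had 190, 34.6, 149 and 181 in TAC, against 136, 168, 155 and 170 in sham. In that unit the groups overlapped, with TAC replicates 1 and 4 above every sham library. All 11 cardiomyocyte marker genes had circles, summing to 312 to 1769 normalised reads in TAC and 209 to 850 in sham. Slc8a1, 1 of these markers, alone gave 63.5 to 1050 in TAC and 24.7 to 313 in sham. The excluded hosts Ryr2 and Cacna1c are also among these markers. Circles from other cell types' markers were fewer. Fibroblast markers (6 of 8, Tcf21 and Postn at 0) summed to 0 to 1.91 in TAC and 1.66 to 4.54 in sham, and endothelial markers (7 of 7) to 0 to 50.9 in TAC and 11.8 to 40.9 in sham. Smooth muscle and pericyte markers (4 of 6, Acta2 and Rgs5 at 0) gave 12.4 to 28.9 in TAC and 8.28 to 22.7 in sham, and leukocyte markers (4 of 5, Csf1r at 0) 11.5 to 39.4 in TAC and 14.4 to 27.3 in sham. Schwann cell and neuron markers (3 of 8, Sox10, Snap25, Rbfox3 and Syt1 among those at 0) gave 0 to 16.5 in TAC and 4.28 to 7.45 in sham, adipocyte markers (2 of 4, Adipoq and Plin1 at 0) 0 to 5.95 in TAC and 1.95 to 4.54 in sham, and erythroid markers (1 of 3, Hbb-bs and Hba-a1 at 0) 0 to 0.636 in TAC and 0 in sham. Some of these sums rest mostly on a single gene. Abcc9 alone gave 9.26 to 23.1 of the smooth muscle and pericyte sums in TAC and 8.28 to 22.7 in sham. The excluded host Scn7a gave 0 to 15.9 of the Schwann cell and neuron sums in TAC and 0 to 7.45 in sham. The part of cell make-up in the results was not tested.

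Circles were spread unevenly over the hosts. Itpr2 had 47 circles, Kcnt2 and Trpm7 had 26 each, Itpr1 had 20, Ryr3 had 14 and Cacna2d1 had 13, and these 6 were the only member hosts with at least 10 circles. The median host had 2 circles, and 35.0% of member hosts had a single circle, against a median of 2 and 34.9% for all other hosts. Reads were more concentrated still. Kcnt2 and Itpr2 together took 62.5% of all ion channel reads, 23 of the 40 hosts had under 10 reads and 12 had 1 read. Of the 224 circles, 134 (59.8%) were seen in 1 library only and 98 (43.8%) rested on 1 read, compared with 61.7% and 46.5% of the rest of the table. Only 39 circles (17.4%, against 13.6% of the rest) were above 0 in at least 4 libraries, 11 in at least 6, 5 in 7 and 0 in all 8.

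In structure the ion channel circles were ordinary in size and rarely touched untranslated sequence. All but 2 were exonic circRNAs; an intronic circle was listed in Itpr1 and another in Clcn1. The 222 exonic circles had a median spliced length of 549 nt (range 199 to 5252 nt) and a median of 4 exons, against 502 nt and 4 exons for the rest of the table. A span of at least 10 exons was seen in 24 of them (10.8%, against 6.78% of the rest) and a single exon in 9 (4.05%, against 2.68%). None held the first or the last exon of its transcript. A start at exon 2 was seen in 27 (12.2%, against 23.1% of the rest), and 217 (97.7%) were wholly coding, against 88.2%. The length of 84 circles (37.8%) was a multiple of 3, against 38.0% of the rest. With 165 circles (74.3%) sharing a splice site with another listed circle, against 71.7% of the rest, the circles of a host are not independent of each other.

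Summed by channel class, all 10 classes overlapped between TAC and sham hearts, and the values were set by a few hosts. The plot of class shares gives each class as a part of the ion channel reads of a library. Calcium- or sodium-activated potassium channels (5 hosts, 33 circles, 1028 reads) summed to 49.0 ± 28.3 normalised reads in TAC and 66.8 ± 36.4 in sham (SD, n = 4 each). IP3 receptors (3 hosts, 68 circles, 422 reads) followed with 39.7 ± 22.7 in TAC and 44.4 ± 41.1 in sham, and TRP channels (12 hosts, 54 circles, 349 reads) with 21.7 ± 14.99 in TAC and 26.7 ± 7.57 in sham. In each of these differences the SD of either group exceeded the difference of the means. For IP3 receptors the overlap came from replicate 2, at 5.77 in TAC on 1 read and 104 in sham on 23 reads. TAC replicates 1, 3 and 4, at 50.6, 50.4 and 52.1, lay above sham replicates 1, 3 and 4. Those sham values were 37.2, 21.5 and 14.6.

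The smaller classes showed the same overlap. Voltage-gated potassium channels (6 hosts, 12 circles) had 10.8 ± 3.13 in TAC and 10.5 ± 4.04 in sham, and auxiliary calcium channel subunits (5 hosts, 22 circles) had 6.604 ± 2.56 in TAC and 5.605 ± 4.07 in sham. Calcium channel pores (2 hosts, 9 circles) had 2.40 ± 1.79 in TAC and 1.93 ± 2.62 in sham. The ryanodine receptor class, Ryr3 alone, had 5.21 ± 4.17 in TAC and 0.384 ± 0.444 in sham. Its overlap came from TAC replicate 2, which had 0 reads, and the other 3 TAC libraries lay above all sham libraries. 2-pore potassium channels (2 hosts, 6 reads) and chloride channels (2 hosts, 2 reads) were too rare to compare.

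**Figure D1:**
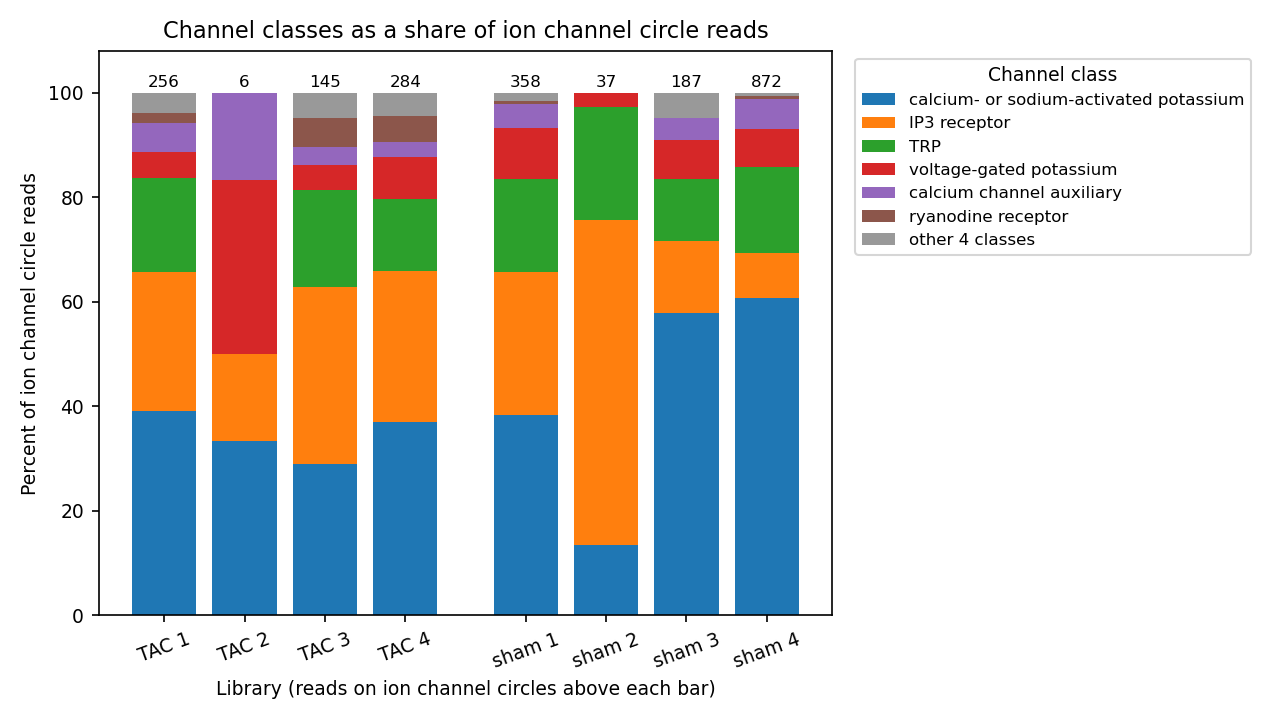
Share of each channel class (percent of ion channel back-spliced reads, stacked) in the 4 TAC and 4 sham libraries, with the number of ion channel reads above each bar. The calcium- or sodium-activated potassium class, almost all Kcnt2, took 29.0 to 39.1% in TAC libraries and 13.5 to 60.7% in sham libraries, and the bar of TAC replicate 2 rests on 6 reads.

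No ion channel host or circle passed the adjusted threshold of 0.05 in the comparison over all 8 libraries. Of the 40 hosts, 18 had reads in at least 4 libraries and were tested by limma. None was called, against 0.0337% of all 2967 hosts tested, and none had an unadjusted p under 0.05, against 3.03%. Their fold changes split into 10 higher and 8 lower in TAC, with a median log2 fold change of 0.13, the same as over all hosts (0.13). The edgeR test on recovered reads could take 6 hosts and called 0 of them, against 8.24% of 1020 hosts, and 0 at an unadjusted p under 0.05, against 24.0%. DESeq2 called 0 of 5, against 3.15%. TAC and sham values were fully apart in 0 of these 18 hosts, against 3.24% of all hosts tested.

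Single circles gave the same picture. Limma tested 39 and called 0, against 0.0268% of 3735, and 3 (7.69%) had an unadjusted p under 0.05, against 4.07%. These were Kcnt2 exons 4 to 8, Kcnt2 exons 15 to 18 and Itpr2 exons 16 to 20. Of the 39, 36 had 0 reads in TAC replicate 2. The groups did not overlap for 1 circle (2.56%, against 3.11% of all circles tested), Kcnt2 exons 15 to 18. The edgeR test could take 3 circles and called 0, against 13.1% of 717, with 0 at an unadjusted p under 0.05, against 28.5%. DESeq2 called 0 of 10, against 1.68%. In the limma fits of all 8 libraries as deposited, the standard errors come from a trend over all features at a given level, so they do not carry the scatter of the single gene. In the fits without both shallow libraries, and for circles with the length trend taken out, they also draw on each feature's own scatter.

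**Figure D2:**
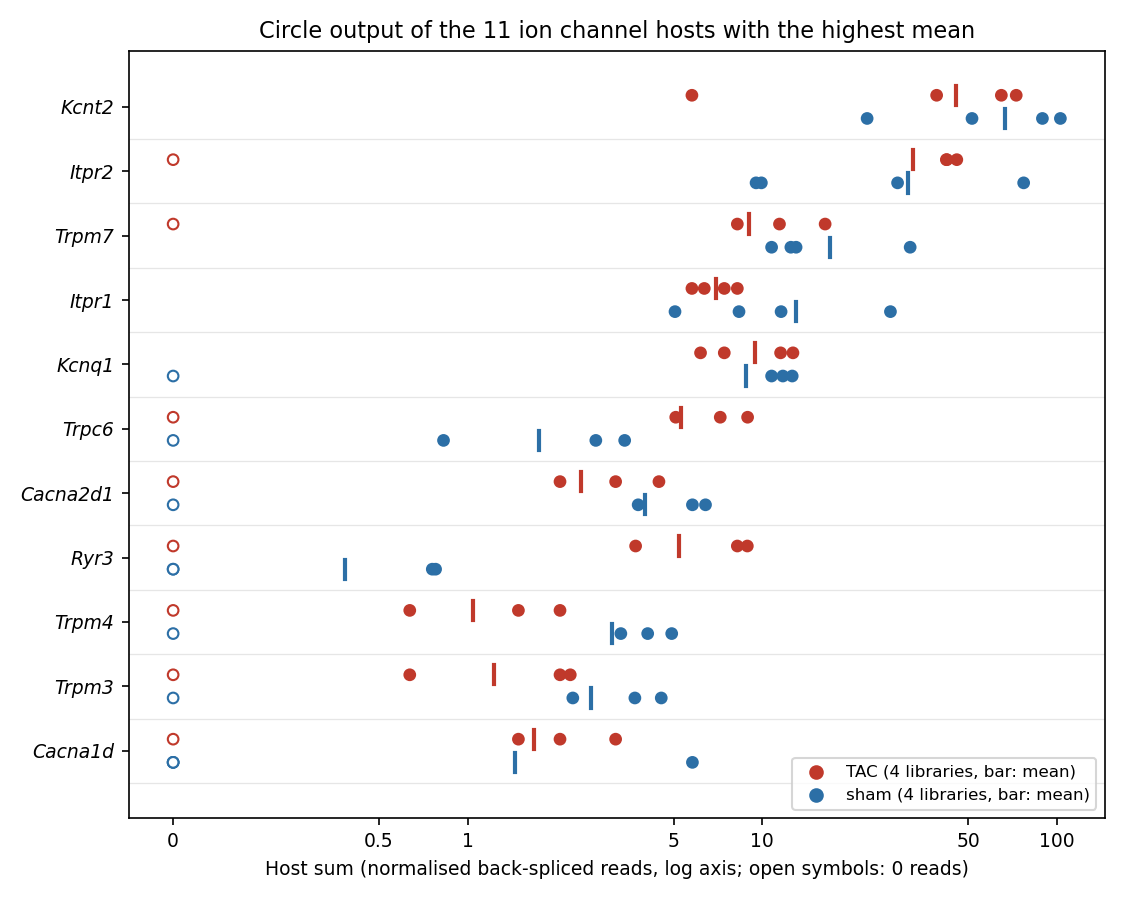
Host sums (normalised back-spliced reads, log axis, open symbols for 0 reads) of the 11 ion channel hosts with the highest mean, in 4 TAC libraries (red, above) and 4 sham libraries (blue, below); bars are group means. The groups overlap in each host drawn, and TAC replicate 2 is at 0 in most of them.

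Kcnt2, which encodes a sodium-activated potassium channel, was the leading host, with 26 circles and 1017 reads. Its host sum was 72.9, 5.77, 39.1 and 64.9 normalised reads in TAC replicates 1 to 4, against 51.6, 22.7, 89.4 and 102.9 in sham replicates 1 to 4. Sham replicates 3 and 4 lay above every TAC library and TAC replicate 2 lay below every sham library, with the rest interleaved. The limma log2 fold change was -0.82 ± 0.70 (SE, adjusted p = 0.9995) and that of edgeR -0.95 ± 0.61 (adjusted p = 0.351).

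A single circle, exons 4 to 8 of the 28-exon transcript, held 77.6% of the Kcnt2 reads. It stood at 42.4, 0, 15.4 and 43.9 in TAC, against 35.3, 9.09, 67.1 and 91.8 in sham. Sham replicates 3 and 4 lay above every TAC library, and the other sham libraries lay within the TAC range. Its limma log2 fold change was -2.12 ± 1.07 (unadjusted p = 0.0470, adjusted p = 0.834), and edgeR gave -1.24 ± 0.79 (adjusted p = 0.294). As a share of Kcnt2 reads it took 58.2% (95% Wilson interval 48.3 to 67.4%), 39.5% (25.6 to 55.3%) and 67.6% (58.1 to 75.9%) in TAC replicates 1, 3 and 4. In sham replicates 1, 3 and 4 it took 68.4% (60.2 to 75.6%), 75.0% (66.1 to 82.2%) and 89.2% (86.3 to 91.6%), so each of these sham shares lay above each TAC share, narrowly for sham replicate 1 and TAC replicate 4. Replicate 2 had 0 of 1 read in TAC and 2 of 5 reads in sham. These intervals cover counting error only, since amplified reads are not independent molecules.

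The remaining Kcnt2 reads came from circles built on a few shared exons, as the exon map shows. The start of exon 4 opened 5 circles, which summed to 55.0, 0, 19.6 and 51.5 normalised reads in TAC, against 39.1, 13.6, 72.9 and 98.6 in sham. From the same start, exons 4 to 13 (1019 nt) had 9.67, 0, 2.06 and 5.72 normalised reads in TAC, against 2.65, 4.54, 0.828 and 2.72 in sham. TAC replicates 1 and 4 lay above every sham library for this circle (limma log2 fold change -0.16 ± 1.60, adjusted p = 0.997). The fold change turned to 1.013 without TAC replicate 2 and to 0.14 without sham replicate 2.

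Further Kcnt2 circles lay away from exon 4. Exons 26 to 27 (386 nt) had 2.97, 0, 2.06 and 3.82 in TAC, against 7.58, 9.09, 8.28 and 2.14 in sham, so that 3 sham libraries lay above every TAC library (limma log2 fold change -2.0 ± 1.6, adjusted p = 0.836). Exons 15 to 18 (700 nt) had 1, 1, 7 and 4 reads in TAC, against 0 in every sham library. It is the only tested member circle that separated the groups, and it passed the filter through its 4 TAC libraries alone, so that separation was fixed once it was tested (limma log2 fold change 4.07 ± 1.45, unadjusted p = 0.00504, adjusted p = 0.834). The start of exon 15 opened 3 circles, which had 18 reads in TAC and 0 in sham.

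**Figure D3:**
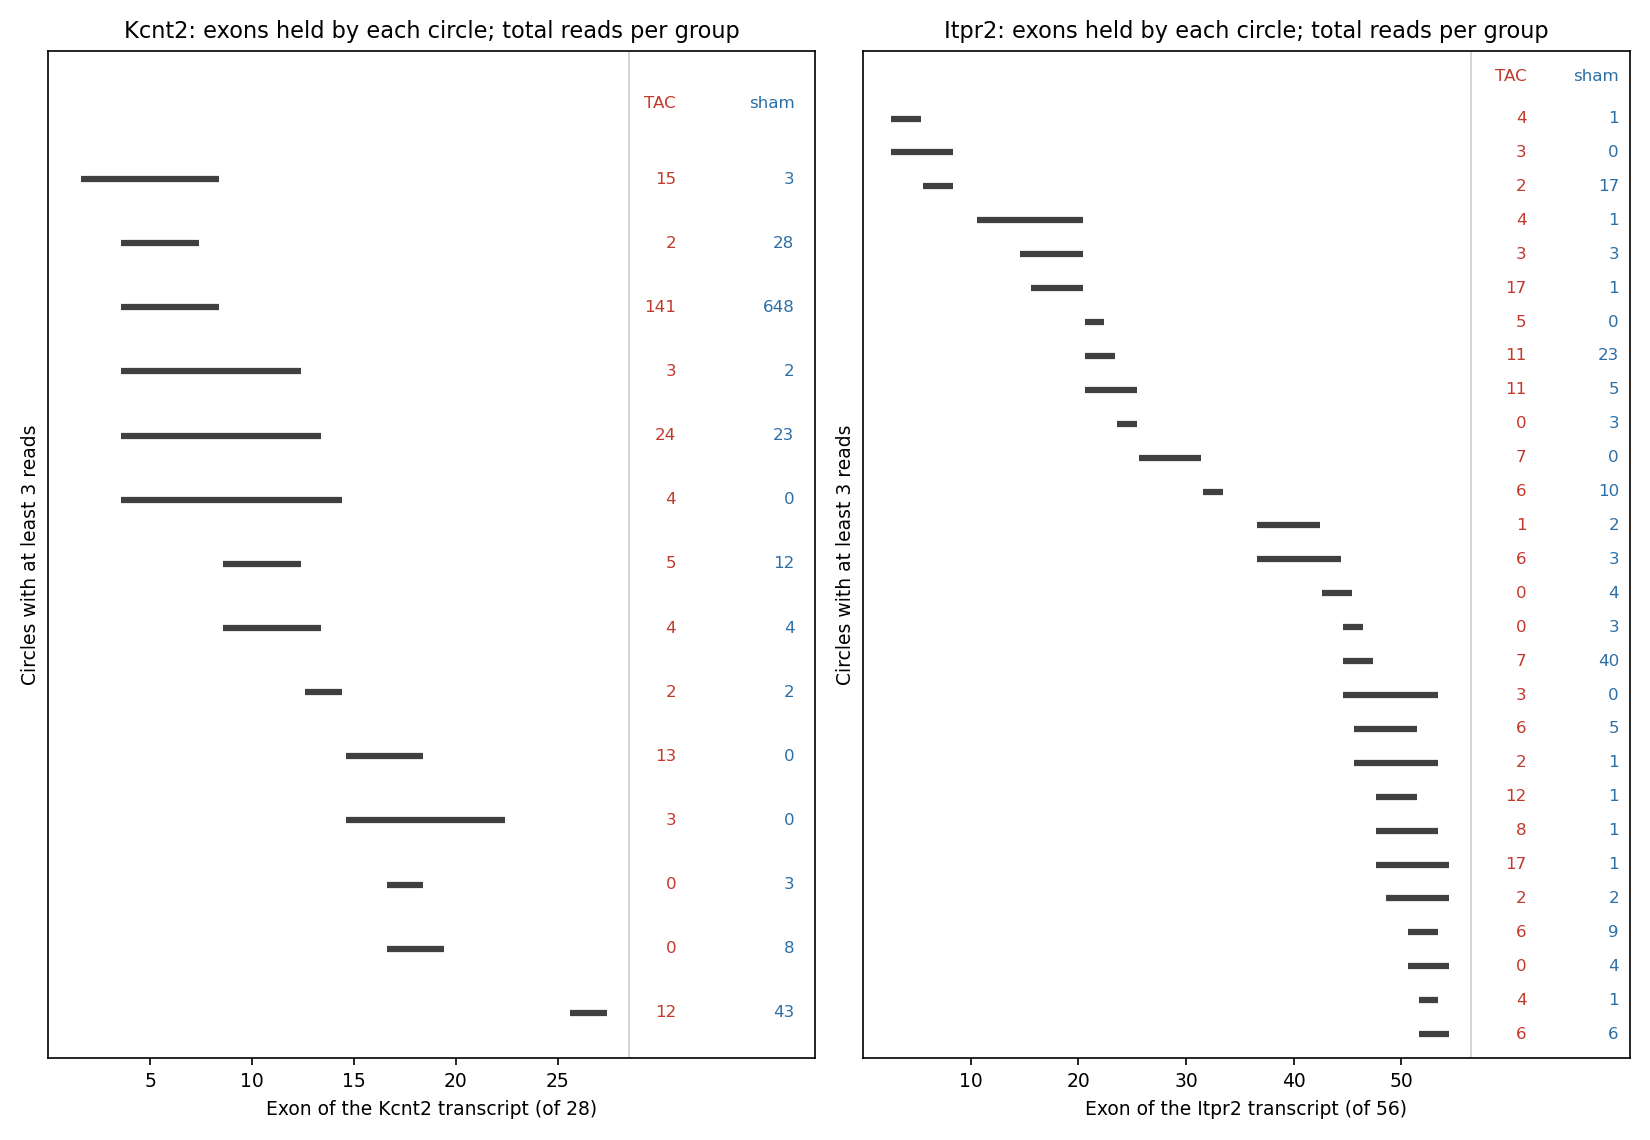
Exons held by each Kcnt2 circle (left) and Itpr2 circle (right) with at least 3 reads, on an axis of exon number, with the total reads of the 4 TAC libraries (red) and of the 4 sham libraries (blue) at the right of each panel, not scaled for depth. Kcnt2 reads centre on exons 4 to 8 (141 TAC and 648 sham reads), while Itpr2 reads spread over many circles; the Itpr2 circle from exon 6 uses a transcript with an added exon and is drawn without it.

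The other calcium-activated potassium channels were rare. Kcnn2, a small-conductance calcium-activated channel, had 3 circles with 2, 0, 2 and 2 reads in TAC, against 1, 0, 0 and 0 in sham (limma log2 fold change of the host sum 2.0 ± 1.2, adjusted p = 0.9995). Kcnma1, the large-conductance channel, had 1 read in each of TAC replicates 2 and 3 and 0 in sham, and Kcnn1 and Kcnn4 had 1 read each. Without both shallow libraries limma called 1 of these circles, Kcnn2 exons 3 to 5 (log2 fold change 2.61 ± 0.64, adjusted p = 0.0313). That fit called 17.9% of all 5809 circles tested, 14.6% as higher in TAC. The Kcnn2 circle had 0 reads in sham, so that passing the filter fixed its separation.

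Kcnq1, the pore subunit of the slow delayed rectifier current that helps end the cardiac action potential, led the voltage-gated potassium channels. Nearly all of its reads (93.9%) came from exons 12 to 15, a 280 nt circle near the end of the coding sequence. That circle stood at 6.69, 11.5, 4.12 and 10.2 in TAC, against 10.997, 0, 10.76 and 12.6 in sham. Apart from sham replicate 2, the sham libraries were tightly placed, and TAC replicate 2 fell among them on 2 reads. The limma log2 fold change was 0.89 ± 1.45 (adjusted p = 0.949), and its sign turned to -0.59 without sham replicate 2 and to -0.70 in edgeR (adjusted p = 0.557). The other 3 Kcnq1 circles shared a last exon with another Kcnq1 circle. The rest of the class was sparse: Kcnh1 had 7 reads, Kcng2, a modifier subunit, had 3, and Kcnh2, the pore of the rapid delayed rectifier, had 1, as did Kcnh7 and Kcnh8. Among 2-pore potassium channels Kcnk10 had 4 reads and Kcnk2 had 2.

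Itpr2, the IP3 receptor type prominent in cardiomyocytes, had the most circles of any member host, 47, with 324 reads and no dominant circle. The circle with the highest mean, exons 21 to 23, held 34 of these reads (10.5%). The host sum was 42.4, 0, 42.2 and 45.8 normalised reads in TAC, against 28.8, 77.2, 9.94 and 9.53 in sham. The TAC libraries other than replicate 2 sat within a narrow band above 3 of the sham libraries, and sham replicate 2, with 17 reads, was the highest of all. The limma log2 fold change was -0.94 ± 1.06 (adjusted p = 0.9995). It was 1.008 without TAC replicate 2, and without both libraries under 5000 reads it was 1.62 ± 0.41 (adjusted p = 0.0390), so the direction and the call depended on the 2 shallow libraries. Without both, limma called 6.06% of all 3648 hosts tested. The edgeR value was 0.17 ± 0.62 with all libraries (adjusted p = 0.902) and 0.96 ± 0.43 without both (adjusted p = 0.122).

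Within Itpr2 the long circles took unlike shares of the reads in the 2 groups. Circles of at least 500 nt held 71.9% of the host's reads in TAC replicate 1 (95% Wilson interval 59.2 to 81.9%), 61.0% in TAC replicate 3 (45.7 to 74.3%) and 68.1% in TAC replicate 4 (56.6 to 77.7%). In sham replicates 1 and 2 they held 34.2% (24.5 to 45.4%) and 52.9% (31.0 to 73.8%), and in sham replicates 3 and 4 they held 0 of 12 reads (0 to 24.2%) and 0 of 49 reads (0 to 7.27%). All TAC libraries with Itpr2 reads thus lay above all sham libraries in this share. Circles seen numbered 27, 23 and 26 in those TAC libraries and 23, 8, 5 and 5 in the sham libraries.

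The long circle of exons 16 to 20 (854 nt) had 4.46, 0, 4.12 and 4.45 normalised reads in TAC, against 0.379, 0, 0 and 0 in sham. Every TAC library except replicate 2 lay above every sham library, although a count of 0 in sham replicate 2 allows values above those of TAC (limma log2 fold change 3.02 ± 1.40, unadjusted p = 0.0316, adjusted p = 0.834). It was too rare for edgeR with all libraries. EdgeR took and called it without TAC replicate 2 (log2 fold change 4.45, adjusted p = 0.0213), without sham replicate 2 (4.22, adjusted p = 0.0262) and without both (4.48 ± 1.25, adjusted p = 0.0143). In each of these fits the circle passed the count filter only through TAC libraries, where it is high. The fits also share the same reads, so the calls are not separate support. With the length trend of each library taken out, the limma log2 fold change of this circle was 1.84 ± 0.90 (adjusted p = 0.536).

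Exons 48 to 54 (1088 nt) had 2.23, 0, 5.15 and 5.72 in TAC, against 0, 4.54, 0 and 0 in sham. The sham value rests on 1 read of replicate 2 (limma log2 fold change 2.18 ± 1.51, adjusted p = 0.834). EdgeR called this circle without TAC replicate 2 (4.32, adjusted p = 0.0286). Circles under 500 nt were mixed in sign. Of the 8 tested by limma, 5 had a positive log2 fold change, from 0.14 to 1.57, and 3 a negative one. Exons 3 to 5 (362 nt) and exons 52 to 53 (297 nt) each rested on 4 TAC reads and 1 sham read, with a limma log2 fold change of 1.57 ± 1.04 (adjusted p = 0.834 for each). Exons 21 to 22, with 5 reads in TAC and 0 in sham, were not tested. Exons 21 to 23 (382 nt) had 0.744, 0, 2.06 and 5.09 in TAC, against 3.03, 27.3, 2.48 and 1.17 in sham (limma log2 fold change -1.80 ± 1.60, adjusted p = 0.842), with sham replicate 2 far above the rest on 6 reads. Exons 45 to 47 (427 nt) had 3.72, 0, 1.03 and 0.636 in TAC, against 7.58, 4.54, 0 and 3.70 in sham (-1.29 ± 1.60, limma adjusted p = 0.921). Exons 51 to 53 (390 nt) had 0.744, 0, 4.12 and 0.636 in TAC and 1.90, 0, 1.66 and 0.389 in sham, with complete overlap. The start of exon 45 opened 6 Itpr2 circles, which summed to 6.69, 0, 1.03 and 1.27 in TAC, against 8.34, 4.54, 2.48 and 3.70 in sham. The end of exon 54 closed 5, which summed to 4.46, 0, 7.21 and 8.27 in TAC, against 4.17, 9.09, 0 and 0 in sham. The groups overlapped in both.

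Itpr1, an IP3 receptor with a broad tissue range, had 20 circles and reads in all 8 libraries. Its host sum was 7.44, 5.77, 8.23 and 6.36 in TAC, against 8.34, 27.3, 11.6 and 5.06 in sham. The TAC values lay within the sham range, and sham replicate 2 stood highest on 6 reads (limma log2 fold change -0.63 ± 1.27 with an adjusted p of 0.9995, and -0.88 ± 0.65 with 0.426 in edgeR). Exons 38 to 44 (705 nt) led the host with 32 of 97 reads and had 2.23, 0, 3.09 and 1.27 in TAC, against 3.41, 0, 4.14 and 1.95 in sham. The 3 circles that end at exon 44 summed to 2.23, 5.77, 4.12 and 1.27 in TAC, against 6.07, 0, 8.28 and 3.31 in sham, so the groups overlapped. Itpr3 was listed with 1 read.

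Ryr3, a ryanodine receptor that is a minor isoform in the heart beside the excluded Ryr2, had 14 circles and 33 reads. Its host sum was 3.72, 0, 8.23 and 8.90 normalised reads in TAC, against 0.758, 0, 0 and 0.778 in sham, or 27 reads against 6. Every TAC library except replicate 2 lay above every sham library. Over all 8 libraries the limma log2 fold change was 2.68 ± 1.54 (unadjusted p = 0.0816, adjusted p = 0.9995). Ryr3 was too rare for edgeR with all libraries. EdgeR called it without TAC replicate 2 (3.07, adjusted p = 0.0265), without sham replicate 2 (2.77, adjusted p = 0.0206) and without both (2.999 ± 0.806, adjusted p = 0.0148). In each of these edgeR fits Ryr3 passed the count filter only through TAC libraries, where it is high. The fits also share the same reads, so the calls are not separate support. Limma called Ryr3 without both (3.57 ± 0.91, adjusted p = 0.0403) and not without TAC replicate 2 alone (3.95 ± 1.35, adjusted p = 0.1705). Without both, limma called 6.06% of all 3648 hosts and edgeR 21.6% of 1387. No Ryr3 circle carried the host alone: the most frequent, exons 6 to 12, had 1, 0, 3 and 3 reads in TAC, against 1, 0, 0 and 0 in sham, and 9 of the 14 were seen in 1 library.

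Among TRP channels Trpm7, a divalent cation channel fused to a kinase, led with 26 circles and 168 reads. Its host sum was 16.4, 0, 8.23 and 11.4 in TAC, against 12.5, 31.8, 10.8 and 13.03 in sham. The TAC and sham libraries interleaved, with TAC replicate 2 lowest and sham replicate 2 highest (limma log2 fold change -1.89 ± 1.30 with an adjusted p of 0.9995, and -0.82 ± 0.62 with 0.453 in edgeR). Exon 33 opened 3 of its circles. Exons 33 to 35 (433 nt) had 2.23, 0, 2.06 and 1.91 in TAC, against 7.58, 0, 1.66 and 3.11 in sham, and exons 33 to 36 (639 nt) had 1.49, 0, 1.03 and 1.27 in TAC, against 1.90, 0, 4.14 and 1.17 in sham. Their limma log2 fold changes were -0.51 ± 1.59 and -0.51 ± 1.54 (adjusted p = 0.985 for each). The third, exons 33 to 34 (350 nt), had 0 reads in TAC and 21 in sham, 20 of them in sham replicate 4. Together the 3 summed to 3.72, 0, 3.09 and 3.18 in TAC, against 9.86, 0, 5.80 and 8.17 in sham, so the 3 deeper sham libraries lay above every TAC library.

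Trpm7 exons 26 to 27 (781 nt) had 2.23, 0, 3.09 and 4.45 in TAC, against 0, 13.6, 0 and 0 in sham. Its sham reads, 3 in all, came from replicate 2, and the 3 deeper TAC libraries lay above the 3 deeper sham libraries (limma log2 fold change 1.54 ± 1.52, adjusted p = 0.879). Circles of at least 500 nt held 63.6% (95% Wilson interval 43.0 to 80.3%), 75.0% (40.9 to 92.9%) and 77.8% (54.8 to 91.0%) of Trpm7 reads in TAC replicates 1, 3 and 4. In sham replicates 1, 3 and 4 they held 21.2% (10.7 to 37.8%), 38.5% (17.7 to 64.5%) and 8.96% (4.17 to 18.2%), and in sham replicate 2 they held all 7 reads (64.6 to 100%). The share was thus higher in the 3 deeper TAC libraries than in the 3 deeper sham libraries, as it was for Itpr2.

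Trpc6, a cation channel opened by diacylglycerol, gave almost all of its reads (98.0%) from a single circle of 1122 nt, exons 4 to 9. That circle had 8.18, 0, 7.21 and 5.09 in TAC, against 3.41, 0, 0.828 and 2.72 in sham. The 3 deeper TAC libraries lay above every sham library, and both shallow libraries were at 0 (limma log2 fold change 1.23 ± 1.61 with an adjusted p of 0.926, and 1.08 ± 0.83 with 0.414 in edgeR). After the length trend was removed the limma value was -0.18 ± 1.14. Another member of the family, Trpc1, had 7 circles with 12 reads in TAC and 2 in sham (host sum, limma log2 fold change 2.45 ± 1.33, adjusted p = 0.9995).

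Trpm4, a calcium-activated channel for monovalent cations, had 1.49, 0, 2.06 and 0.636 in TAC, against 4.93, 0, 3.31 and 4.09 in sham. All deeper sham libraries lay above all TAC libraries, while the 0 of sham replicate 2 lay at the level of the lowest TAC library (limma log2 fold change -1.15 ± 1.58, adjusted p = 0.9995). Exons 7 to 9 (354 nt) gave 41 of its 43 reads. Trpm3 had a host sum of 2.23, 0, 2.06 and 0.636 in TAC, against 2.28, 4.54, 0 and 3.70 in sham (-0.83 ± 1.57, limma adjusted p = 0.9995). The rest of the family gave few reads: Trpv4, opened by swelling and heat, had 10, of which 9 lay in sham replicate 4, Trpc4ap had 5, all in TAC, and Trpm6, Trpv2, Trpv1 and Trpm2 had 1 to 3 each.

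Cacna2d1, the auxiliary subunit that brings the calcium channel pore to the membrane, led the calcium channel genes with 13 circles and 63 reads. It summed to 4.46, 0, 2.06 and 3.18 in TAC, against 3.79, 0, 5.80 and 6.42 in sham. The groups overlapped (limma log2 fold change -0.54 ± 1.60, adjusted p = 0.9995). Of its 23 reads on exons 11 to 18 (711 nt), 18 came from sham replicate 4. Cacnb4, a beta subunit, averaged 1.03 ± 1.202 in TAC and 1.30 ± 1.61 in sham, with 17 of its 28 reads in sham replicate 4 (SD, n = 4 each). Cacnb2, the beta subunit prominent in the heart, had 6 reads in TAC and 1 in sham. Cacnb1 had 3 reads and Cacna2d3 had 1.

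The pore genes were rarer. Cacna1d, the L-type channel of pacemaker cells, had 1.49, 0, 2.06 and 3.18 in TAC, against 0, 0, 5.80 and 0 in sham. Its circles did not match between the groups: exons 2 to 3 had 8 reads in TAC and 0 in sham, while exons 44 to 45 had 7 reads, all in sham replicate 3 (host sum, limma log2 fold change 1.45 ± 1.39, adjusted p = 0.9995). Cacna1a averaged 0.717 ± 1.05 normalised reads in TAC and 0.481 ± 0.580 in sham (SD, n = 4 each).

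The chloride genes Clcn7, a lysosomal exchanger, and Clcn1, the skeletal muscle channel, had 1 read each, in TAC libraries.

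Length moved with the fold change of ion channel circles as it did in the whole table. Of the 22 tested member circles of at least 500 nt, 16 had a higher mean log2 value in TAC (median log2 fold change 1.19), next to 72.1% of all 1421 such circles (median 0.87). Of the 17 shorter ones, 6 were higher (median -0.51), next to 42.9% of all 2268 (median -0.23). With that trend taken out library by library, 11 of the 22 long members and 5 of the 17 short ones were higher, with medians of -0.07 and -0.75, next to -0.13 and -0.07 for all circles. In that fit Kcnt2 exons 4 to 8 had a log2 fold change of -2.03 ± 1.08 (limma, adjusted p = 0.587).

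**Figure D4:**
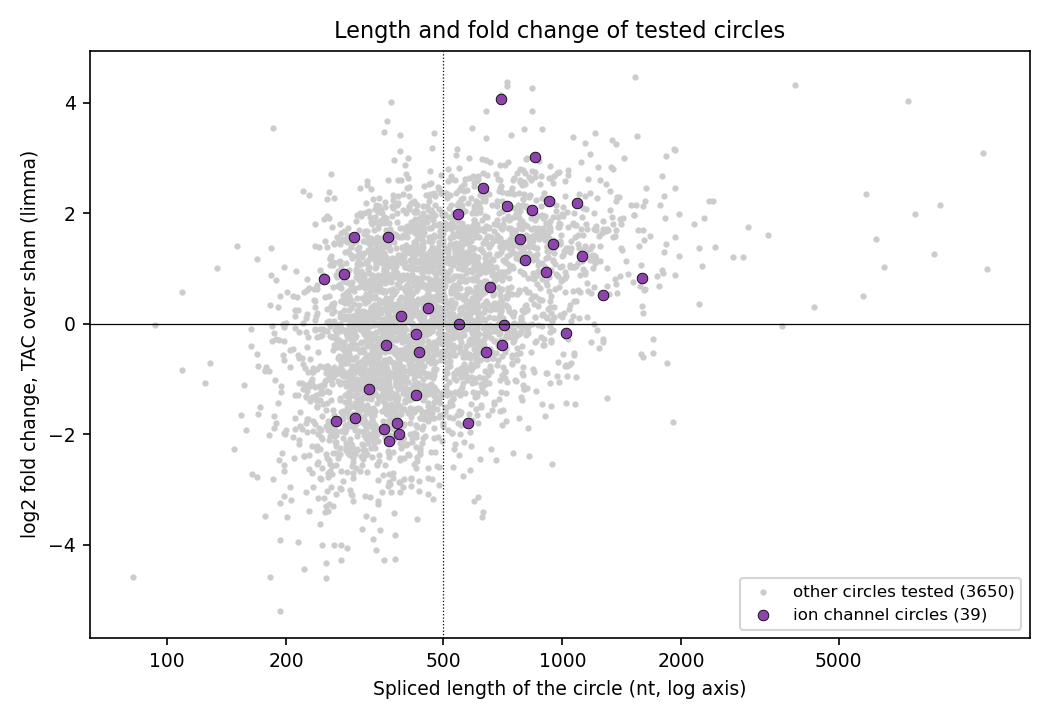
Limma log2 fold change, TAC over sham, against spliced length (nt, log axis) for the 39 tested ion channel circles (purple) and 3650 other tested circles with a known length (grey); the dotted line marks 500 nt. Of the members at or above 500 nt, 16 of 22 lie above 0, and of those below it, 6 of 17.

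At the level of libraries, circles of at least 500 nt held 52.0% (95% Wilson interval 45.8 to 58.0%), 33.3% (9.68 to 70.0%), 63.6% (55.5 to 71.1%) and 48.4% (42.6 to 54.2%) of ion channel reads in TAC replicates 1 to 4. In sham replicates 1 to 4 they held 22.1% (18.1 to 26.6%), 56.8% (40.9 to 71.3%), 15.5% (11.02 to 21.4%) and 11.2% (9.31 to 13.5%). The 3 deeper TAC libraries lay above the 3 deeper sham libraries, and the 2 shallow ones crossed over. All circles of the same libraries gave 57.0, 18.3, 53.3 and 49.8% in TAC, against 26.1, 48.5, 23.6 and 21.3% in sham. The 3 deeper TAC libraries thus lay above the 3 deeper sham libraries for all circles too. The order was otherwise not the same, as TAC replicate 2 was lowest for all circles and not for ion channel circles. The number of member circles seen ran alike: 99, 5, 79 and 98 in TAC, against 75, 19, 39 and 35 in sham. Sham replicate 4, with the most member reads (872), thus showed fewer member circles than any TAC library except replicate 2. The part of library preparation in these differences was not tested.

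**Figure D5:**
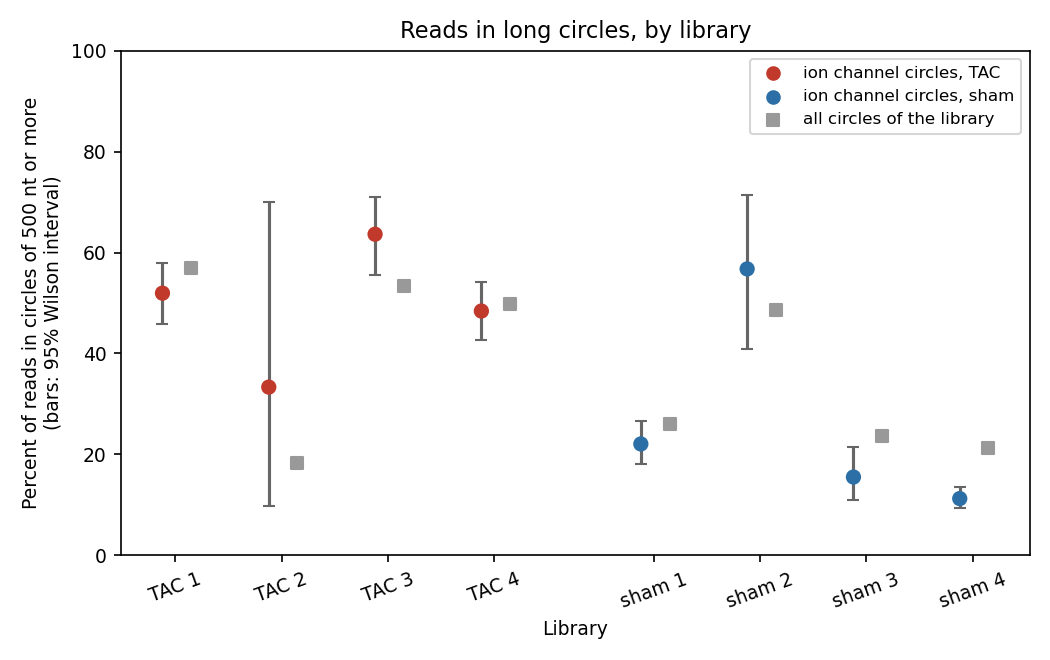
Percent of back-spliced reads in circles of at least 500 nt, for ion channel circles (coloured, bars are 95% Wilson intervals) and for all circles of the same library (grey squares), in 4 TAC and 4 sham libraries. Ion channel circles reach 48.4 to 63.6% in TAC replicates 1, 3 and 4 and 11.2 to 22.1% in sham replicates 1, 3 and 4, with the shallow replicates 2 at 33.3% in TAC and 56.8% in sham.

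Leaving out both libraries under 5000 reads changed the calls. With 3 libraries per group, limma called 16 of 56 tested member circles (28.6%), against 17.9% of 5809 circles. The calls were 14 higher in TAC (25.0%, against 14.6%) and 2 lower (3.57%, against 3.2%). Of the 56 members, 32 were at least 500 nt long, against 2392 of the 5809 circles. At that length 84.4% of the members and 84.1% of all circles had a positive log2 fold change. The sets thus differed in length, and the calls were not compared at equal length. The 16 came from 8 hosts, and 6 of the higher ones were Itpr2 circles. Of the 14 higher circles, 13 were at least 500 nt long and 11 had 0 reads in all 3 sham libraries, while both lower ones were under 500 nt and had 0 reads in all 3 TAC libraries. For the 13 with a group at 0, passing the filter fixed the separation. The called circles with the largest values were Itpr2 exons 48 to 54 (log2 fold change 4.45 ± 0.76, adjusted p = 0.0247) and Trpm7 exons 26 to 27 (4.10 ± 0.74, adjusted p = 0.0288). Both were fitted against a sham group at 0, so these fold changes depend on the pseudocount. That group was at 0 only because sham replicate 2 was left out, which held 4.54 for the Itpr2 circle and 13.6 for the Trpm7 circle. With all 8 libraries neither was called. The lower circles were Itpr1 exons 43 to 44 (-3.23 ± 0.69, adjusted p = 0.0313) and Trpm7 exons 18 to 20 (-2.80 ± 0.72, adjusted p = 0.0313). For the Itpr1 circle, TAC was at 0 only because TAC replicate 2 was left out. That library held 5.77 on 1 read, above every sham library. With all 8 libraries the limma log2 fold change of the Itpr1 circle was -1.18 ± 1.37 (adjusted p = 0.919). EdgeR called 1 of 9 (11.1%), Itpr2 exons 16 to 20, against 30.0% of 1145. That circle passed the edgeR count filter only through TAC libraries. Among hosts, limma called Itpr2 and Ryr3 (2 of 22, 9.09%, against 6.06% of 3648 in either direction), both higher in TAC (against 5.07%), and edgeR called Ryr3 (1 of 9, 11.1%, against 21.6% of 1387). Ryr3, too, passed the edgeR count filter only through TAC libraries.

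Genes that work beside the channels, a list of 90 exchangers, pumps, calcium store proteins, anchors and regulators that also holds the 3 excluded hosts, were taken for comparison. Circles were listed for 65 of them and 43 were tested by limma as hosts, 27 higher and 16 lower in TAC, with a median log2 fold change of 0.47 against 0.13 over all hosts. In this list 1 gene passed in limma (1 of 43, 2.33%, against 0.0337% of all hosts) and in edgeR (1 of 16, 6.25%, against 8.24%), Slc8a1, the sodium-calcium exchanger. Slc8a1 was the only host that limma called among all 2967 tested, so both limma shares rest on the same call. The list was drawn up with earlier results of these data known, so the gap between these shares says nothing about the list. The host sum of Slc8a1 was 1050, 63.5, 642 and 436 in TAC, against 60.7, 313, 24.8 and 24.7 in sham, and only sham replicate 2 reached the TAC range (log2 fold change 2.66 ± 0.40 with an adjusted p of 8.35e-08 in limma, and 2.37 ± 0.68 with 0.0173 in edgeR). The limma call was lost when values were rescaled by TMM (2.41, adjusted p = 0.142) and when reads were asked for in at least 6 libraries (adjusted p = 0.913). DESeq2 gave 2.19 (adjusted p = 0.0746), and the edgeR call was lost without sham replicate 1, 3 or 4 and without TAC replicate 1 or 3 (1.86 to 2.41, adjusted p = 0.0543 to 0.222). Stk39, a kinase that regulates ion cotransporters, had a log2 fold change of 1.74 ± 0.64 in limma (adjusted p = 0.9995) and 1.47 ± 0.64 in edgeR (adjusted p = 0.133). Sorbs2, an adaptor at the Z-disc and intercalated disc, had a host sum of 134.6, 0, 106.0 and 115.1 in TAC, against 25.4, 27.3, 13.2 and 29.2 in sham. Every TAC library except replicate 2 lay above every sham library, and the log2 fold change was 0.05 ± 0.91 in limma (adjusted p = 0.9995) and 1.60 ± 0.62 in edgeR (adjusted p = 0.0900). Without both shallow libraries, limma called 6 of the 48 tested list genes (12.5%, against 6.06% of all hosts), all higher in TAC (against 5.07%), with Ryr2, Cacna1c, Stk39 and Sorbs2 among them. In that fit the list's median log2 fold change was 0.66, against 0.68 over all hosts. EdgeR called 6 of 24 (25.0%, against 21.6%), 4 higher and 2 lower, Stk39 and Sorbs2 among those called.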

How the data were processed

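Heart circRNA libraries of 4 TAC and 4 sham mice were used, 1 per mouse per the labels' protocols, numbered in accession order. The submitters' processing notes name mm10, HISAT2, StringTie and DESeq2 without roles; which circRNA caller was used, the read length and the strand are not stated. The deposited unit is signal: back-spliced reads that the authors divided by 1 size factor per library, as the values themselves show, since all (100% within 0.001) were whole multiples of the smallest one. The design provided for counts, with limma for normalised values, and limma was therefore used. Whole reads were recovered for edgeR and DESeq2.

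Circle starts in the table count from 0 and are given from 1. Exons and lengths come from GENCODE M21; 222 of the 224 members received a length. Limma 3.58.1 with an intensity trend ran in R 4.3.3 on log2(value + 0.195), for features above 0 in at least 4 of 8 libraries, over all circles or all host sums, with Benjamini-Hochberg adjustment and a threshold of 0.05. Alternatives were edgeR 4.0.16 (quasi-likelihood, TMM, robust, minimum count 5, minimum total 15), DESeq2 1.42.0, pseudocount 1, other filters and scalings, removal of each library's length trend (robust loess, span 0.5), and leaving out libraries. Fits without both libraries under 5000 reads asked for reads in 3 of 6 libraries. EdgeR fits that leave out libraries were added after seeing the data. Scripts were tested on simulated data.

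Members, classes, markers and the partner list were chosen with earlier results of these data known. Named circles are those past the threshold over all 8 libraries, the 10 with the largest mean, those in at least 6 libraries and those with an unadjusted limma p under 0.05; named hosts are the 10 with the largest mean, the 5 with the most circles and each class's leader. Others were named after their values were seen. Junctions from chromosome 18 are not printed. Overlapping and antisense genes were not separated. Some items are not reported here.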

Additional observations from a re-analysis of the deposited data

Results flagged for a closer look

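Among 77 groups of 4 values examined, 16 held a library that lay far from the other 3 of its group. The rule asked that its gap to the nearest, divided by the range, exceed Dixon's 95% critical value. A group with reads in a single library passes this rule whatever the size of that value. Class, host and circle groups also share reads, as do the Kcnq1 host and its circle. The usual chance rate of 1 in 20 assumes continuous values and separate groups. The 16 groups therefore cannot be weighed against that rate. Most of the flagged values come from the shallow libraries, TAC replicate 2 with 1119 reads and sham replicate 2 with 3963, where 1 read is worth 5.77 and 4.54 normalised reads.

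In TAC replicate 2, the IP3 receptor class sum was 5.77 (other TAC libraries 50.4 to 52.1), the Itpr2 host sum was 0 (42.2 to 45.8), the Itpr2 circle of exons 16 to 20 was 0 (4.12 to 4.46) and the Trpm7 circle of exons 33 to 35 was 0 (1.91 to 2.23). In sham replicate 2, the Trpm7 host sum was 31.8 (other sham libraries 10.8 to 13), the Itpr2 circle of exons 21 to 23 was 27.3 (1.17 to 3.03), the Trpm7 circle of exons 26 to 27 was 13.6 (others 0) and the Itpr2 circle of exons 48 to 54 was 4.54 (others 0). The Kcnq1 host sum and its circle of exons 12 to 15 were 0 there (10.8 to 12.6 for the host and for the circle).

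In the deeper libraries, the Cacna1d host sum was 5.80 in sham replicate 3, the Itpr2 circle of exons 16 to 20 was 0.379 in sham replicate 1, the Clcn7 host sum was 1.03 in TAC replicate 3, and the Kcnk10 host sum and the 2-pore potassium class sum were 1.27 in TAC replicate 4, with the others of each group at 0. The auxiliary calcium channel class sum was 10.4 in TAC replicate 1 (other TAC libraries 5.09 to 5.77).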

How the results depend on the processing

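Ion channel calls over all 8 libraries numbered 0 for circles and 0 for hosts in limma, edgeR and DESeq2, and in limma with every other pseudocount, filter, scaling and single library left out. Without both libraries under 5000 reads limma called 16 circles (28.6%, against 17.9% of all circles tested) and 2 hosts (9.09%, against 6.06% of all hosts tested). On the same libraries edgeR called 1 circle (11.1%, against 30.0%) and 1 host (11.1%, against 21.6%). EdgeR without 1 library called 0 to 2 circles and 0 to 1 hosts. The shares of all circles and hosts called in those fits are not given here, so these counts cannot be weighed. Over all 3735 circles tested, limma called 1 circle, 0 after TMM rescaling or removal of the length trend, 0 to 41 without 1 library and 1037 without both shallow libraries; edgeR called 94 and DESeq2 23. Over all hosts limma called 1, 0 with reads in at least 6 libraries or after TMM rescaling, 4 with reads per library total, 1 to 28 without 1 library and 221 without both shallow libraries; edgeR called 84 and DESeq2 30. No class sum moved by more than its SD.

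Signs of values not called over all 8 libraries turned as follows. Among them, limma called Itpr2 as a host without both shallow libraries. Without both shallow libraries, the log2 fold change was -0.78 for Kcnq1 exons 12 to 15, 1.32 for Kcnt2 exons 4 to 13, 1.62 for Itpr2, -0.47 for Kcnq1 and 0.43 for Trpm3 as hosts. In edgeR it was -0.70 for that Kcnq1 circle, 0.17 for Itpr2 and -0.64 for Kcnq1, and in DESeq2 -0.32, 0.031 and -0.42, with 1.03 for Kcnt2 exons 4 to 13. For that Kcnt2 circle pseudocount 1 gave 0.17. Leaving out 1 library at a time gave -0.87 to 1.013 for Kcnt2 exons 4 to 13, -0.59 to 1.43 for Kcnq1 exons 12 to 15, -1.57 to 0.37 for Trpm7 exons 33 to 35, -1.39 to 0.51 for Itpr1 exons 38 to 44, -1.40 to 0.22 for Trpm7 exons 33 to 36, -0.61 to 0.88 for Itpr2 exons 51 to 53, and, for hosts, -1.74 to 0.48 for Cacna2d1, -1.62 to 1.008 for Itpr2 and -0.36 to 1.65 for Kcnq1. Itpr2 exons 51 to 53 gave -0.041 with TMM and -0.17 with reads per library total, and Trpc6 exons 4 to 9 gave -0.18 with the length trend removed. The cause was not tested. No paired analysis was possible because the replicate numbers follow accession order and pair no mice. Depth limits all of this: 185 members had reads in fewer than 4 libraries.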
